A study of Mus musculus with 12 samples.

Results

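Cathepsins are the main proteases of the lysosome, and their transcripts were followed here in the brain of mice that lack the lysosomal tripeptidyl peptidase Tpp1. The 10 members were taken by gene symbol from the deposited count tables: the aspartic protease Ctsd, the serine carboxypeptidase Ctsa, and the papain-type cysteine proteases Ctsb, Ctsc, Ctsf, Ctsh, Ctsl, Ctso, Ctss and Ctsz. They are 10 of 52459 genes in each table, and all 10 passed the filter on low counts in every comparison. RNA came from cerebellum (Cb) and from forebrain/midbrain (F/M) of male mice aged 4 months. The mutants (T) were homozygous Tpp1-/- animals of a line made by gene targeting and bred from heterozygous crosses, and the controls (N) were their wild-type siblings. The 4 groups Cb-N, Cb-T, F/M-N and F/M-T held 3 libraries each. The disruption is carried by all cells of the animal. The study's methods give 3 mice of each genotype as the source of both areas. The strain background, and which Cb and F/M library came from the same mouse, are not given in the sources used here, so the comparisons between areas treat the libraries as separate samples.

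Cathepsins are made as inactive precursors, sorted to the lysosome in large part by mannose 6-phosphate receptors, and activated there at acid pH. Together they take up the bulk of protein breakdown in that compartment, some as endopeptidases that cut within chains and others as exopeptidases that trim the ends. In the brain they are made by neurons and glia, and several are abundant in microglia, the resident macrophages. Mutations of TPP1 cause classical late-infantile neuronal ceroid lipofuscinosis in people, and mutations of CTSD or CTSF cause other forms of that storage disease.

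Each library held between 21428379 and 24458189 counted reads. Levels are given as CPM, read counts scaled to a common library size by TMM, an edgeR method that corrects for composition, and 3 counts corresponded to 0.121 to 0.139 CPM. The targeted gene checked the labels. Tpp1 stood at 112, 114 and 112 CPM in Cb-N and at 28.0, 31.0 and 30.03 CPM in Cb-T, and at 94.3, 88.7 and 87.7 CPM in F/M-N against 23.9, 21.8 and 23.3 CPM in F/M-T. Its transcript was thus 3.76-fold lower in Cb-T and lower in every T library of F/M (log2 fold change -1.94). Marker genes fitted the labelled tissue: the summed level of 6 genes of cerebellar neurons was 6206 to 6249.6 CPM in Cb-N and 91.0 to 94.3 CPM in F/M-N, and that of 6 forebrain neuron genes was 355 to 369 CPM in F/M-N and 9.14 to 9.95 CPM in Cb-N. The 3 Cb-T libraries also held transcripts that the other libraries lacked or nearly lacked. Hox genes of the hindbrain, whose expression in the brain is known from regions behind the cerebellum, summed to 12.6 to 13.5 CPM in Cb-T, 0.232 to 0.550 CPM in Cb-N and at most 0.0846 CPM in F/M. These genes had enough reads for a test only through Cb-T, so their levels are given as a description. As all Cb-T libraries share this, RNA from tissue next to the cerebellum and the genotype cannot be told apart in Cb, whereas F/M showed no such difference.

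Most members of the family had higher transcript levels in both areas of the mutant brain, and most of them changed more in Cb than in F/M. A gene was called when the false discovery rate (FDR, Benjamini-Hochberg over all genes tested by edgeR's quasi-likelihood test) was below 0.1 and the change was at least 1.5-fold. The study used the same limits but kept only genes found by more than a single method, so its calls can differ from those given here. In Cb, Ctss, Ctsd, Ctsh, Ctsz, Ctsc and Ctsl were called higher in T, 6 of 10 members, where 8.54% of all 16382 genes tested were called higher. In F/M, Ctss, Ctsz, Ctsd, Ctsc and Ctsh were called higher, 5 of 10 members, against 2.63% of 16665 genes. By FDR alone 9 of 10 members were higher in Cb and the same number in F/M, against 29.8% and 12.8% of all genes. None was lower by FDR alone, against 27.9% of all genes in Cb and 14.4% in F/M. The exception was Ctsf in both areas. In those 9 genes every T library lay above every N library in Cb and again in F/M, a pattern seen in 27.7% of all genes in Cb and 13.3% in F/M. The reverse, every T library below every N library, was seen in 29.4% of all genes in Cb and 23.6% in F/M. The median log2 fold change of the members was 0.80 in Cb and 0.52 in F/M, and that of all genes was 0.012 and 0.0078.

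**Figure D1:**
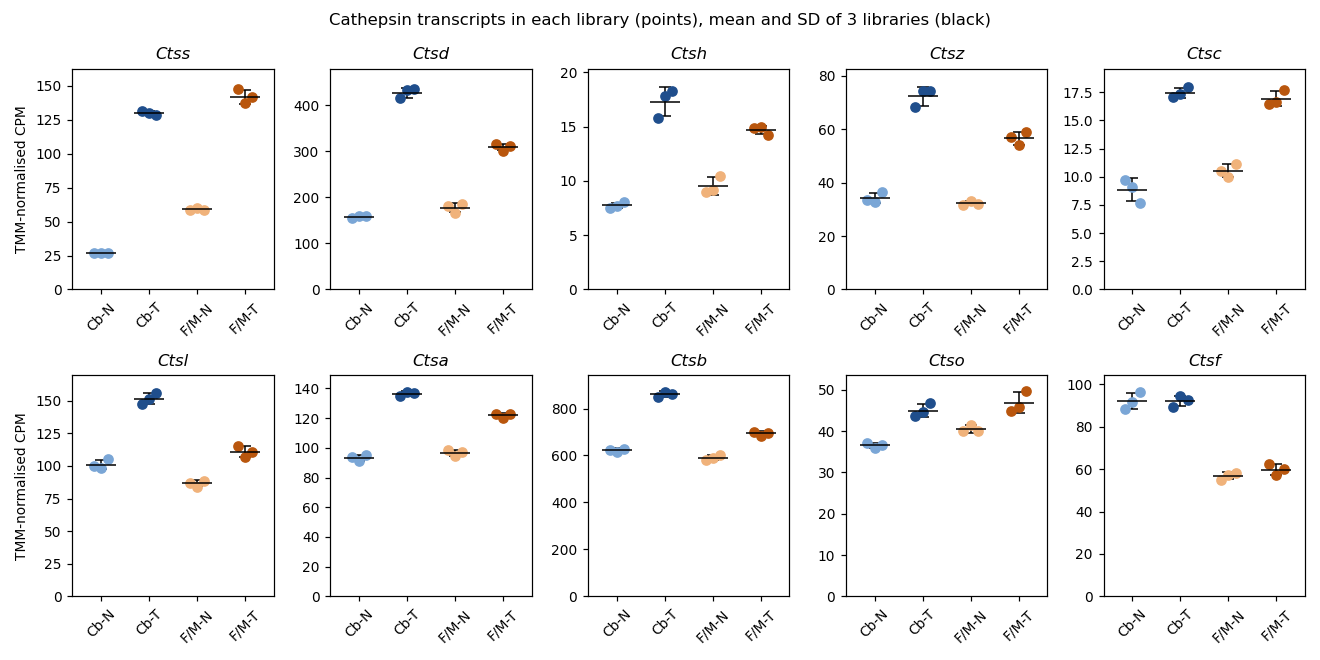
TMM-normalised CPM (y axes, from 0) of the 10 cathepsins in each of the 12 libraries (points, 3 per group on the x axes), with the group mean and SD in black. The 3 T points lie above the 3 N points of the same area in each panel but that of Ctsf, and the Ctss level of Cb-N (26.8 CPM) is the lowest of its panel.

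Taken as a sum over the members, cathepsin transcripts made up between 0.117% and 0.121% of all counts in Cb-N, between 0.199% and 0.206% in Cb-T, between 0.110% and 0.114% in F/M-N and between 0.152% and 0.160% in F/M-T. The summed level was 1.65-fold higher in Cb-T than in Cb-N and 1.36-fold higher in F/M-T than in F/M-N. Most of the added reads came from a few members. Of the difference of 769 CPM in Cb, Ctsd gave 35.1%, Ctsb 30.9% and Ctss 13.4%. Of the 414 CPM in F/M, Ctsd gave 31.9%, Ctsb 25.2% and Ctss 20.1%. The make-up of the pool therefore differed between the genotypes. Reads of Ctsb were 52.7% of the family's sum in Cb-N and 44.1% in Cb-T, those of Ctsd 13.4% and 21.9%, and those of Ctss 2.27% and 6.65%. In F/M the share of Ctss was 5.08% in N and 9.02% in T.

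Ctsd encodes the aspartic endopeptidase of the lysosome, which also activates other lysosomal enzymes. Its level was 155, 159 and 159 CPM in Cb-N and 416, 433 and 435 CPM in Cb-T. The groups were far apart, and the change was 2.74-fold (log2 fold change 1.45, SE 0.026, edgeR FDR 2.4e-37). The F/M level was 181, 166 and 185 CPM in N and 316, 302 and 311 CPM in T, a 1.78-fold change (log2 0.83, SE 0.037, edgeR FDR 1.6e-12). The control tissues differed little, with Cb-N 1.13-fold below F/M-N (edgeR FDR 2.4e-04), whereas all Cb-T libraries lay above all F/M-T libraries. Ctsd lies at chr7:142375911-142388038 (GRCm38, minus strand), on the same chromosome as Tpp1 and 36.6 Mb from it. GENCODE places the transcripts of the gene model Gm49369 over 34.4% of its exon bases on the same strand, and that model is not a row of the count tables.

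Ctsa encodes protective protein/cathepsin A, a carboxypeptidase that also holds beta-galactosidase and neuraminidase 1 in a stable complex. Its level was 90.9 to 94.9 CPM in Cb-N and 135 to 138 CPM in Cb-T, and 94.6 to 98.6 CPM in F/M-N and 120.2 to 123 CPM in F/M-T. Groups did not overlap in either area, but the change of 1.48-fold in Cb (log2 0.56, 95% interval 0.50 to 0.63, edgeR FDR 1.2e-19) stayed just under the fold limit, and that in F/M was 1.29-fold (edgeR FDR 1.7e-07). Of the rest of that complex, Glb1 (beta-galactosidase) was called higher in Cb (log2 0.62, edgeR FDR 1.2e-11) and not in F/M (log2 0.13, edgeR FDR 0.12). The Glb1 call in Cb was lost without Cb-N replicate 3 or Cb-T replicate 3 (log2 0.58 each). Neu1 (neuraminidase 1) stood at 59.1 to 60.9 CPM in Cb-N and 58.3 to 60.6 CPM in Cb-T, with overlap in F/M as well (log2 0.05, 95% interval -0.04 to 0.14).

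Ctss encodes cathepsin S, an endopeptidase that stays active at neutral pH and cleaves the class II invariant chain in antigen-presenting cells. Among the 10 members it had the largest change in each area. In Cb-N its level was 26.8, 26.9 and 26.8 CPM, and in Cb-T it was 131, 130 and 128 CPM. The libraries within each group were almost level, and the change was 4.89-fold (log2 2.29, SE 0.039, edgeR FDR 3.9e-38). In F/M-N it was 58.2, 60.04 and 58.7 CPM and in F/M-T 147, 137 and 141 CPM, which is 2.46-fold (log2 1.30, SE 0.038, edgeR FDR 2.4e-15). Control cerebellum thus started from 2.21-fold less Ctss than control F/M, while the 2 mutant tissues came to lie between 128 and 147 CPM. Ctss lies at chr3:95526786-95556403 (GRCm38, plus strand), and no exon of another gene overlaps it. Its neighbour on that chromosome, Ctsk (cathepsin K, best known from osteoclasts), was low and not called: 1.91 to 2.93 CPM over the Cb libraries and 2.94 to 4.07 CPM over the F/M libraries.

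Ctsb, Ctsl, Ctsf and Ctso are the broadly expressed cysteine cathepsins. Ctsb, an endopeptidase that also acts as a dipeptidyl carboxypeptidase, had the most reads of the family, 616 to 629 CPM in Cb-N and 848 to 872 CPM in Cb-T, and 581 to 601 CPM in F/M-N and 684 to 702 CPM in F/M-T. It rose by FDR in both areas without reaching the fold limit, 1.39-fold in Cb (edgeR FDR 1.5e-22) and 1.20-fold in F/M (edgeR FDR 3.1e-07). Ctsl, a potent endopeptidase, was 100.1, 98.2 and 105 CPM in Cb-N and 147, 152 and 156 CPM in Cb-T. This 1.52-fold change (log2 0.60, SE 0.032, edgeR FDR 3.9e-20) was the smallest one called, and it lay under the fold limit when Cb-N replicate 2 (log2 0.57) or Cb-T replicate 3 (log2 0.58) was left out. In F/M Ctsl was 84.2 to 88.8 CPM in N and 107 to 116 CPM in T, 1.31-fold and not called. Ctso, a little-studied member, had the smallest change by FDR alone, 1.24-fold in Cb (edgeR FDR 1.4e-07) and 1.18-fold in F/M (edgeR FDR 0.0011).

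Ctsf, whose human counterpart is mutated in an adult form of the storage disease, was the member that did not pass the test between genotypes. It stood at 88.5, 91.8 and 96.2 CPM in Cb-N and at 89.4, 94.4 and 92.6 CPM in Cb-T. The groups overlapped, and the interval of the log2 difference ran from -0.06 to 0.08 (edgeR FDR 0.78). In F/M it was 55.0, 57.4 and 58.3 CPM in N and 62.2, 57.1 and 60.1 CPM in T, again with overlap (log2 0.10, 95% interval 0.01 to 0.20, edgeR FDR 0.10, and between 0.037 and 0.36 over the alternatives).

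Ctsc, Ctsh and Ctsz are exopeptidases: cathepsin C removes dipeptides from the amino terminus and activates granule proteases, cathepsin H is an aminopeptidase, and cathepsin Z (also called X) trims the carboxyl terminus and is known from macrophages and microglia. Ctsz was 33.5, 32.6 and 36.5 CPM in Cb-N and 68.2, 74.2 and 74.4 CPM in Cb-T. It changed 2.13-fold (log2 1.09, SE 0.045, edgeR FDR 8.0e-24). Values in F/M were 31.8, 33.2 and 32.2 CPM in N and 57.2, 53.9 and 58.8 CPM in T, or 1.79-fold (log2 0.84, edgeR FDR 9.2e-11). So Ctsz held nearly the same level in both control tissues and was clearly higher in both mutant ones.

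Ctsh and Ctsc had few reads, between 166 and 444 per library. Ctsh was 7.496, 7.70 and 8.02 CPM in Cb-N and 15.8, 17.9 and 18.3 CPM in Cb-T, 2.26-fold (log2 1.17, SE 0.083, edgeR FDR 5.4e-16). Its F/M values were 9.02, 9.14 and 10.5 CPM in N and 14.9, 14.98 and 14.3 CPM in T, 1.57-fold (edgeR FDR 5.8e-06). Despite the low counts the genotypes did not overlap. Ctsc was 9.71, 9.12 and 7.70 CPM in Cb-N and 17.1, 17.3 and 17.98 CPM in Cb-T, 1.99-fold (log2 0.99, SE 0.081, edgeR FDR 5.0e-14). In F/M it was 10.5, 9.99 and 11.1 CPM in N and 16.4, 16.6 and 17.7 CPM in T, 1.64-fold (edgeR FDR 6.5e-07). Ctsc lies at chr7:88278085-88310888 (GRCm38, plus strand), 17.5 Mb from Tpp1. Both Ctsc and Ctsd share the targeted chromosome, and the part that DNA flanking the disrupted gene may have in their values was not tested.

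In the order of change in Cb, the intervals of Ctsh, Ctsz and Ctsc overlapped from one to the next, as did those of Ctsl, Ctsa and Ctsb. Ctss, Ctsd, Ctso and Ctsf each stood clear of their neighbours. In F/M the order was Ctss, then Ctsz, Ctsd, Ctsc and Ctsh with overlapping intervals, then Ctsl, Ctsa, Ctsb, Ctso and Ctsf, again with overlap from each to the next.

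**Figure D2:**
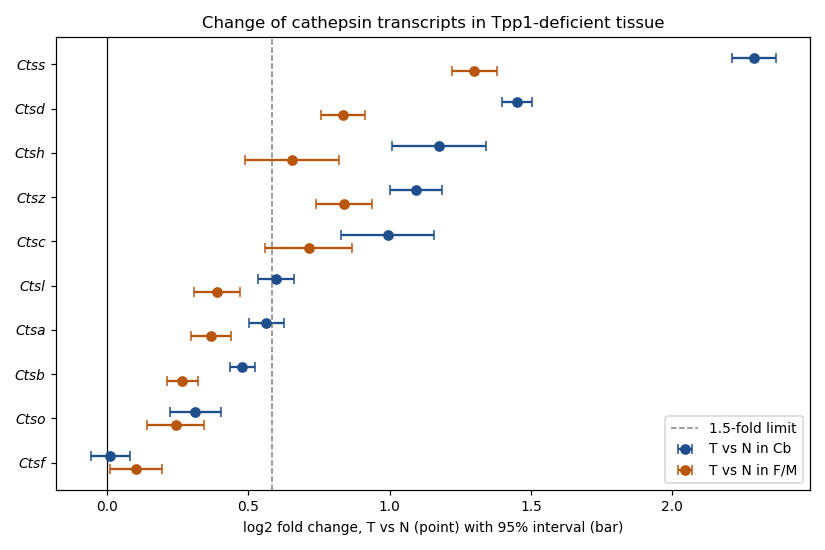
Log2 fold change of T against N (x axis, points, with 95% intervals as bars) of the 10 cathepsins (y axis) in Cb and F/M, with the 1.5-fold limit dashed. Ctss is farthest right in both areas (2.29 and 1.30), 6 points of Cb and 5 of F/M lie past the dashed line, and the Ctsf interval of Cb spans 0.

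Whether the rise differed between areas was tested as the interaction of tissue and genotype over all 12 libraries. It was larger in Cb by FDR for 8 of 10 members, against 17.4% of 17482 genes, and past 1.5-fold for Ctss and Ctsd, against 6.41% of genes. The change of Ctss was larger in Cb by 1.01 on the log2 scale (SE 0.053, edgeR FDR 3.3e-15), and that of Ctsd by 0.64 (SE 0.046, edgeR FDR 4.6e-12). Without Cb-T replicate 3 the Ctsd difference was 0.57, below the fold limit. Ctsh followed with 0.54 (SE 0.12, edgeR FDR 7.6e-04), and Ctsa, Ctsb, Ctsc, Ctsl and Ctsz lay between 0.22 and 0.30, with Ctsc near the limit (edgeR FDR 0.052, and between 0.024 and 0.19 over the alternatives). Ctso (0.09, 95% interval -0.04 to 0.22) and Ctsf (-0.07, 95% interval -0.19 to 0.04) did not pass. The median of the members was 0.25 and that of all genes 0.027.

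**Figure D3:**
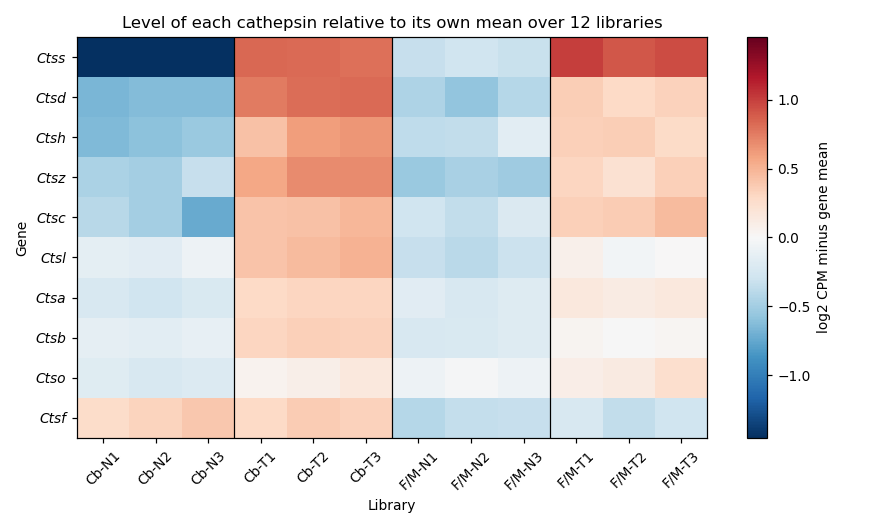
Level of each cathepsin (rows) in each library (columns, 3 per group) as log2 CPM minus the gene's own mean over the 12 libraries (colour scale, red above and blue below the mean). Ctss, the top row, is darkest blue in Cb-N and red in all T libraries, while Ctsf is red in all 6 Cb libraries and blue in all 6 F/M libraries.

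The control tissues were compared to see which cathepsins differ between areas in the normal brain. Ctsf was called higher in Cb-N, 1.62-fold (log2 0.69, SE 0.041, edgeR FDR 2.2e-12), where 19.2% of 16725 genes were called higher. Ctss was called lower in Cb-N (log2 -1.14, SE 0.044, edgeR FDR 1.8e-15), where 22.8% were called lower. By FDR alone Ctsf, Ctsl and Ctsb were higher in Cb-N and Ctso, Ctsd, Ctsc, Ctsh and Ctss lower, against 40.3% and 40.1% of all genes, so the count of members that differed between areas was near that of genes in general. Ctsl was 1.16-fold higher in Cb-N (edgeR FDR 2.1e-05) and Ctsh 1.24-fold lower (edgeR FDR 0.0058). Ctsc was 1.19-fold lower (edgeR FDR 0.020), but its FDR reached 0.14 over the alternatives. For Ctsa the log2 interval was -0.13 to 0.02 and for Ctsz -0.03 to 0.19, with overlapping libraries in both genes. These 6 N libraries are also the controls of the T comparisons, so the comparisons are not independent.

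Levels were compared between members only per kilobase of annotated exon. On this scale, in CPM per kilobase, Ctsb was highest in the controls, at 103 in Cb-N and 97.6 in F/M-N, followed by Ctsd at 67.2 and 75.5. In the mutants Ctsd came first, with 182 in Cb-T and 132 in F/M-T, and Ctsb second, with 142 and 115. This order depended on the length used: with coding length Ctsb stayed first in every group (847 against 348 for Ctsd in Cb-T), and with the longest transcript both were near 146 in F/M-T. Ctss ranked the fifth in Cb-N at 19.7, level with Ctsa at 19.8 within the spread of the libraries, and the third in Cb-T at 95.6, in F/M-N at 43.4 and in F/M-T at 105. By coding length it ranked 8 of 10 in Cb-N, 4 in Cb-T, 5 in F/M-N and 3 in F/M-T. Ctsh and Ctsc were the lowest in every group under all 3 lengths, at 1.72 and 1.52 in Cb-N, where their libraries overlapped, and at 3.85 and 3.01 in Cb-T. Apart from those 2 pairs in Cb-N, no neighbours in the order had overlapping libraries.

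**Figure D4:**
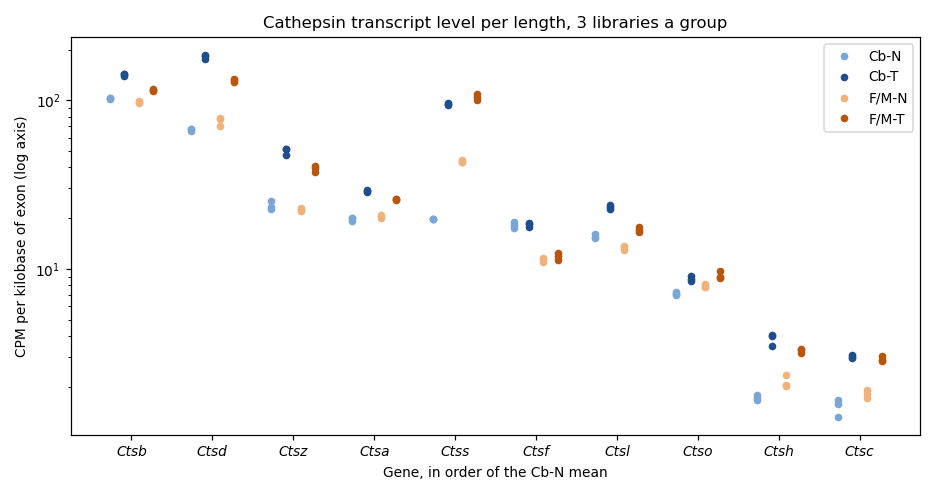
CPM per kilobase of exon (y axis, log scale) of the 10 cathepsins (x axis, in order of the Cb-N mean), with 1 point for each of the 3 libraries of a group. Ctsb leads in both N groups and Ctsd in both T groups, and the points of Ctss move from 19.7 in Cb-N to 95.6 in Cb-T.

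Cathepsin genes are thought to be under the control of the transcription factors TFEB, TFE3 and MITF, which bind E-box sequences, and in macrophages under that of PU.1 (Spi1) and IRF8. RefSeq promoter windows (GRCm38.p6, from 250 bases before to 50 after the start) matched 8 of 10 members. The E-box CACGTG, which reads the same on both strands, was in the windows of 4 of these 8 (Ctsa, Ctsd, Ctsf and Ctsl) and in 8.09% of the 27025 genes with a window. Its extended palindrome TCACGTGA, the core of the element described in lysosomal genes, was in those of Ctsa and Ctsd and in 1.12% of genes, always overlapping the shorter motif. GAGGAAG, a PU.1-type motif searched on both strands, was in those of Ctsc and Ctss and in 15.4% of genes. The windows follow RefSeq starts, and GENCODE also has longer transcripts: both Ctsa stretches, from the second of its windows, and the Ctsl, the Ctss and the nearer Ctsd stretch lie at least in part in an exon of their own gene. The stretches are shown because they are the only matches to these motifs in the members' windows; each is written 5′ to 3′ on the gene's strand, with CACGTG, or GAGGAAG read on the opposite strand, in capitals, and the distance is that of the first capital.
Ctsa, chr2:164833749-164833778, plus strand, 12 bases before the start: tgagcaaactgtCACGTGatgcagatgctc
Ctsa, chr2:164833766-164833795, plus strand, past the start: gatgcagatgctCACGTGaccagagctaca
Ctsd, chr7:142388048-142388077, minus strand, 245 bases before the start: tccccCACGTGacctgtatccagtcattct
Ctsd, chr7:142387908-142387937, minus strand, 98 bases before the start: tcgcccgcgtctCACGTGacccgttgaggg
Ctsf, chr19:4855074-4855103, plus strand, 79 bases before the start: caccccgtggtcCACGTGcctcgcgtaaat
Ctsl, chr13:64370739-64370768, minus strand, 236 bases before the start: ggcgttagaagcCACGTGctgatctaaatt
Ctsc, chr7:88277877-88277906, plus strand, 197 bases before the start: ccactttccttCTTCCTCctagtggtgcct
Ctsc, chr7:88277924-88277953, plus strand, 150 bases before the start: tcactaactaaCTTCCTCaggccacctcgt
Ctss, chr3:95526774-95526803, plus strand, across the start: atgaaagttcaCTTCCTCattgtggatgct

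Among the members with an E-box, the log2 fold change in Cb was 1.45 for Ctsd, 0.60 for Ctsl, 0.56 for Ctsa and 0.01 for Ctsf. It was 2.29 for Ctss and 0.99 for Ctsc, which hold GAGGAAG and were called in both areas, and 1.09 for Ctsz and 0.31 for Ctso, which hold neither motif. A relation of motif and change was not tested. Of the listed factors, 2 of 5 tested were called higher in both areas, against 8.54% of all genes in Cb and 2.63% in F/M. Spi1 was 0.688 to 1.02 CPM in Cb-N and 2.66 to 3.46 CPM in Cb-T (log2 1.83, edgeR FDR 6.5e-10), and in F/M it changed by 0.76 (edgeR FDR 0.0013). Irf8 was 1.38 to 1.73 CPM in Cb-N and 6.13 to 6.52 CPM in Cb-T (log2 2.04, edgeR FDR 1.5e-15), and in F/M it changed by 0.90 (edgeR FDR 2.3e-05). None of the TFEB family genes was called. Tfeb itself was 0.17 lower on the log2 scale in Cb-T (edgeR FDR 0.049) and 0.12 higher in F/M-T (edgeR FDR 0.39).

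Proteins that act on cathepsins were read from the same fits. Among the cysteine protease inhibitors, the calls were Cst7 in both areas and Cst3 in Cb, of 5 tested in each. Cst7, cystatin F, an inhibitor of cathepsins C, H, L and S that is made by immune cells, was 0.0887, 0.138 and 0.232 CPM in Cb-N and 8.60, 10.2 and 10.4 CPM in Cb-T. It was 0.130, 0.270 and 0 CPM in F/M-N and 4.55, 4.64 and 4.92 CPM in F/M-T, so that it went from 0 to 6 reads per N library to between 104 and 254 per T library (log2 5.97 in Cb and 5.15 in F/M). It passed the filter only through the T libraries, so its values are a description and its call is not set against the share of all genes. With so few reads in N the size of the F/M change was loose, at log2 6.11 without F/M-N replicate 2 and 4.56 without F/M-N replicate 3. Cst3, cystatin C, the abundant inhibitor secreted in the brain, was 222 to 252 CPM in Cb-N and 368 to 424 CPM in Cb-T (log2 0.73, edgeR FDR 1.8e-21). The F/M level was 618 to 742 CPM in N and 798 to 829 CPM in T (log2 0.32, edgeR FDR 3.0e-05). In the control tissues Cst3 was 2.83-fold lower in Cb than in F/M (edgeR FDR 2.2e-16), in the same direction as Ctss.

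Of 12 genes for maturation, sorting and partners of cathepsins, 2 were called higher in Cb and 1 in F/M, where 8.54% and 2.63% of all genes were. By FDR alone 7 were higher and 2 lower in Cb, where 29.8% of all genes were higher and 27.9% lower, and 6 were higher and 2 lower in F/M, where the shares were 12.8% and 14.4%. Grn, progranulin, which is cut by cathepsins and binds Ctsd, was 44.3, 46.9 and 46.5 CPM in Cb-N and 81.5, 87.6 and 86.5 CPM in Cb-T (log2 0.91, edgeR FDR 4.2e-23). In F/M it was 51.8 to 58.6 CPM in N and 80.7 to 82.2 CPM in T (log2 0.59, edgeR FDR 6.2e-09), a call that fell under the fold limit without F/M-N replicate 2 (0.55) or F/M-T replicate 1 (0.58) and in the fit of all 12 libraries (0.56). The other one in Cb was Glb1, given with Ctsa. The other lysosomal peptidases behaved like the less changed cathepsins: besides Tpp1, none of the 5 tested was called, and all 5 were higher by FDR alone in both areas, with no log2 fold change above 0.50 in Cb or 0.36 in F/M.

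Among the class II antigen presentation genes, whose invariant chain is the substrate of Ctss, 6 of 7 tested were called higher in Cb and 3 of 6 in F/M, against 8.54% and 2.63% of all genes. Cd74, the invariant chain, was 3.77 to 4.54 CPM in Cb-N and 7.65 to 8.20 CPM in Cb-T (log2 0.92, edgeR FDR 2.8e-09), and it changed by 1.07 in F/M (edgeR FDR 4.6e-07). H2-Aa (0.64 in Cb and 0.70 in F/M) and H2-Eb1 (0.65 and 0.63) were called in both areas. H2-Ab1 (0.71), H2-DMa (0.88) and H2-DMb1 (0.62, edgeR FDR 0.048) were called in Cb. Several of these calls rested on 1 library. H2-Aa fell under the fold limit in Cb without Cb-N replicate 3 (0.51) or Cb-T replicate 1 (0.57), and in F/M without F/M-N replicate 2 (0.57). H2-Eb1 did so in Cb without Cb-N replicate 1 (0.56) or Cb-T replicate 1 (0.55), and in F/M without F/M-N replicate 1 (0.53) or 2 (0.51) or F/M-T replicate 1 (0.58). H2-DMb1 in Cb lost its call without Cb-N replicate 1 or 2 or Cb-T replicate 3, where its edgeR FDR lay between 0.11 and 0.18, and gained one in F/M without F/M-N replicate 3 (0.80). H2-Ab1 gained one in F/M without F/M-N replicate 1 (0.59) or F/M-T replicate 2 (0.60). These changes were smaller than that of Ctss in both areas, and the summed level of the list was at most 33.5 CPM.

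Of 13 other cathepsin genes in the tables, at most 3 had enough reads to be tested, and the rest were at or near 0. Ctse, an aspartic cathepsin of immune cells, had 2 reads in each Cb-N library and 22, 16 and 15 in the Cb-T libraries, and passed the filter only through the latter, so its log2 difference of 2.94 (95% interval 1.94 to 3.95) is a description. The F/M libraries held 0 to 4 reads of it, and it was not tested there. Ctsw, known from cytotoxic lymphocytes, had 25, 25 and 22 reads in Cb-N and 9, 3 and 1 in F/M-N, and passed the filter of that comparison only through Cb-N, so its level of 1.02 to 1.15 CPM against 0.0423 to 0.390 CPM is a description. Ctsw was not called between genotypes in Cb (log2 -0.49, edgeR FDR 0.13), whereas the paper lists it among its changed genes of Cb.

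Markers of cell types were read beside the cathepsins. In whole tissue, more cells of a type and more RNA per cell cannot be told apart. The 12 microglial markers summed to 118 to 127 CPM in Cb-N, 447 to 467 CPM in Cb-T, 369 to 378 CPM in F/M-N and 563 to 569 CPM in F/M-T, with none of the 12 below 3 counts on average in any group. The sum was 3.78-fold higher in Cb-T and 1.51-fold higher in F/M-T, but the markers differed among themselves. In F/M, P2ry12 and Tmem119, which mark resting microglia, had log2 fold changes of -0.01 (edgeR FDR 0.93) and -0.06 (edgeR FDR 0.48), while C1qa changed by 1.18 (edgeR FDR 2.7e-14). In Cb, P2ry12 had a mean of 11.5 CPM in N and 16.2 CPM in T, and Tmem119 5.95 and 7.33 CPM. All 12 markers were higher in Cb-T by FDR alone, against 29.8% of all genes. Called higher were 10 of 12 in Cb, against 8.54% of all genes, and 7 of 12 in F/M, against 2.63%, and all 12 were called lower in Cb-N than in F/M-N, against 22.8%, the direction of Ctss. The ratio of Ctss to this sum was 0.225, 0.228 and 0.211 in Cb-N and 0.294, 0.278 and 0.278 in Cb-T, and 0.154, 0.163 and 0.155 in F/M-N and 0.259, 0.243 and 0.251 in F/M-T. Ctss was thus higher relative to this sum, in which abundant markers weigh most, in every T library of both areas. Single markers had log2 fold changes from 0.31 to 3.27 in Cb and from -0.06 to 1.38 in F/M. With 2.29 and 1.30, Ctss rose more than some markers and less than others. For Ctsd the ratio ranged from 1.256 to 1.35 over the Cb-N libraries and from 0.927 to 0.943 over the Cb-T libraries, but from 0.451 to 0.489 in F/M-N and from 0.534 to 0.556 in F/M-T. It went down in Cb and up in F/M. Apart from Ctss, each member had a lower ratio in Cb-T than in Cb-N. In F/M the ratio of Ctsz was also higher in T, with 0.0843, 0.0899 and 0.0850 in N and 0.101, 0.0954 and 0.104 in T. The mean ratios of Ctsc (0.0281 in N and 0.0299 in T) and Ctsh (0.0255 and 0.0260) were close, with overlapping libraries, and those of Ctsa, Ctsb, Ctsf, Ctsl and Ctso were lower in F/M-T. The part of microglia in the cathepsin changes was not tested.

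Of border macrophage and blood leukocyte markers 3 of 8 tested were called higher in Cb and 1 of 7 in F/M. The call in F/M was Ms4a7 alone (6, 8 and 8 reads in N and 12, 17 and 20 in T). As Ms4a7 passed the filter only through T in both areas, these counts are a description and are not set against the share of all genes. The median log2 fold change of those tested was 0.08 in Cb (from -0.37 to 1.87) and 0.12 in F/M (from -0.12 to 1.14). The sums were 10.8 to 12.4 CPM in Cb-N, 15.6 to 16.1 CPM in Cb-T, 14.2 to 16.5 CPM in F/M-N and 16.3 to 17.2 CPM in F/M-T. Astrocyte markers were called higher for 2 of 10 in Cb and 1 of 10 in F/M, and endothelial and general neuron markers for 0 of 10 in each area, where 8.54% and 2.63% of all genes were called higher. By FDR alone, where 29.8% of all genes were higher and 27.9% lower in Cb, and 12.8% and 14.4% in F/M, 9 of 10 astrocyte markers were higher in Cb and 9 of 10 in F/M. Oligodendrocyte markers were higher by FDR alone for 9 of 10 in Cb and 1 of 10 in F/M, and endothelial markers for 6 of 10 and 2 of 10. Lower by FDR alone were 1 astrocyte marker in Cb, and 2 oligodendrocyte markers and 1 endothelial marker in F/M. Of the neuron markers 3 were higher and 4 lower by FDR alone in Cb, and 0 were higher and 4 lower in F/M. The 6 cerebellar neuron genes had 5 lower and 0 higher by FDR alone in Cb. Their sum was 6206 to 6249.6 CPM in Cb-N and 5404 to 5474 CPM in Cb-T. For the 6 forebrain neuron genes 3 were lower and 1 higher in F/M, with sums of 355 to 369 CPM in F/M-N and 319 to 326 CPM in F/M-T. Oligodendrocyte markers, called for 1 of 10 in Cb and 0 in F/M, summed to 4767 to 4878 CPM in Cb-N and 6229.8 to 6292 CPM in Cb-T, and to 6117 to 6285 CPM in F/M-N and 6071 to 6234 CPM in F/M-T. They differed in Cb, where the Hox genes did, and their sums overlapped in F/M. The part of any of these in the cathepsin values was not tested.

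The genes with the pattern most like each cathepsin were found among 12004 genes with a mean of at least 5 CPM, as the smallest root mean square (RMS) difference of centred log2 CPM over the 12 libraries. For Ctss this was the complement gene C1qb (RMS 0.11, Pearson r 0.996), for Ctsd the haem oxygenase gene Hmox1 (RMS 0.12), and for both Ctsc and Ctsh it was Grn (RMS 0.10 and 0.11). The nearest gene to Ctsz was Cd9 (RMS 0.089), to Ctsl S100a16 (RMS 0.066), to Ctsb Plekhb1 (RMS 0.042), to Ctsa Ptgds (RMS 0.032), to Ctso Psma2 (RMS 0.041) and to Ctsf Raly (RMS 0.041). Within the family Ctsa and Ctsb (RMS 0.086), Ctsc and Ctsh (RMS 0.13) and Ctsd and Ctsz (RMS 0.14) were each other's nearest, while Ctss (RMS 0.52, to Ctsd) and Ctsf (RMS 0.28, to Ctsl) lay farthest from any other member. These likenesses largely reflect the 4 groups that all libraries share.

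The other members are spread over the genome, with Ctsa at chr2:164832873-164841032 and Ctsz at chr2:174427493-174439039, Ctso at chr3:81932601-81956725, Ctsh at chr9:90054152-90076089, Ctsl at chr13:64359337-64370890, Ctsb at chr14:63122462-63145923 and Ctsf at chr19:4855130-4860918 (GRCm38; Ctsl and Ctsz on the minus strand). Some members share exon bases with other genes, where the counting could lose or split reads. The models whose exons overlap those of Ctsl, Gm47123 and Gm49230, are not among the counted genes, and neither is Gm49369, which overlaps Ctsd. Beside Ctsd, the share of 50-base stretches of the transcripts that occur in another gene was 26.3% for Ctsl, 12.1% for Ctsb, which overlaps Fdft1 on the opposite strand, and 11.6% for Ctsa, which overlaps Pltp and Neurl2. It was 0.482% for Ctsc, 0.064% for Ctsh and 0 for Ctsf, Ctso, Ctss and Ctsz. The strand setting of the counting is not given in the sources used here, so reads of Ctsa and Ctsb cannot be told apart from those of Pltp and Fdft1 where they overlap.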

How the data were processed

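The authors aligned 50-base single-end reads of stranded poly(A) libraries with STAR (version 2.5.1b in the processing notes) to mm10 and deposited whole-number counts per gene from featureCounts (Rsubread 1.26.1). The handling of reads that map to several places and the annotation release are not given in the sources used here. Groups came from the sample titles. Counts were tested with the quasi-likelihood test of edgeR 4.0.16 in R 4.3.3, with TMM scaling, filterByExpr (minimum count 10, minimum total 15) and Benjamini-Hochberg adjustment over all genes tested. Each T comparison used the 6 libraries of its area, Cb-N vs F/M-N the 6 N libraries, and the interaction all 12. Intervals are 95% limits of the fitted log2 fold change. Likeness used log2 CPM with a prior count of 2. CPM levels and library overlaps used 1 TMM scaling of all 12 libraries. Fold changes used the scaling of their own comparison, so they can differ slightly from ratios of the printed CPM. The tests were checked on simulated data. Named genes were the 10 members, Tpp1, genes of the pathway lists called in Cb or F/M, and the nearest genes by pattern. Ctsk, Ctsw, Tfeb, Neu1, Ms4a7, P2ry12, Tmem119 and C1qa were named after their values were seen. The members and lists were chosen with earlier results of these data known. Gene positions and exon overlaps came from GENCODE M21 (GRCm38), which may differ from the annotation counted. Alternatives were RLE size factors, DESeq2 1.42.0, limma-voom (limma 3.58.1), no filter, a replicate block, 1 fit of 12 libraries, each library left out, an FDR limit of 0.05, no fold limit, and other lengths for the per-kilobase level.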

Additional observations from a re-analysis of the deposited data

Results flagged for a closer look

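The change of Ctss between genotypes differed between the areas, being larger in Cb by 1.01 on the log2 scale (edgeR FDR 3.3e-15). That of Ctsd was likewise larger in Cb, by 0.64 (edgeR FDR 4.6e-12). Both were tested as the interaction of tissue and genotype. Beside them, the microglial marker sum was 3.78-fold higher in Cb-T and 1.51-fold higher in F/M-T, and the hindbrain Hox sum was 12.6 to 13.5 CPM in Cb-T alone. Their part in these differences was not tested.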

How the results depend on the processing

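No result changed direction past the threshold under any alternative run. With no fold limit, 9442 genes were called in Cb, 4541 in F/M, 13459 between the control tissues and 4816 in the interaction, and 9 members in F/M, 8 between the control tissues and 8 in the interaction. Left-out libraries gave 1 to 2 members called in the interaction, the lower number without Cb-T replicate 3, as Ctsd fell under the fold limit. For single members, 118 of 120 alternative values in Cb, 120 of 120 in F/M, 120 of 120 between control tissues and 169 of 170 in the interaction kept their call. The exceptions were Ctsl in Cb and Ctsd in the interaction, given with the results. Same-numbered libraries did not deviate together (correlations -0.02 to 0.06), so the numbers were not taken as pairs. With the replicate block, 6, 5, 2 and 2 members were called in the 4 comparisons, and 1834, 607, 7023 and 1346 genes. H2-DMb1 in Cb was not called by DESeq2 (adjusted p = 0.16). Depth limited Ctse and Cst7, which had few reads in the controls.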
